A study of Homo sapiens with 4 samples.

Results

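The nuclear-encoded subunits of the mitochondrial respiratory chain and of ATP synthase were followed in U87 cells, an established human glioma line, on 4 single-colour expression arrays. Members were the probe sets annotated to exactly 1 gene whose symbol names a subunit of complex I (NDUFA, NDUFB, NDUFC, NDUFS and NDUFV), complex II (SDH), complex III (UQCR), complex IV (COX subunits with a number and letter) or complex V (ATP5), with pseudogenes left out. The rule found 135 probe sets of 74 genes among 41920 probe sets and 18304 genes. Complex I held 56 probe sets of 32 genes, complex II 8 of 3, complex III 13 of 6, complex IV 22 of 15 and complex V 36 of 18. The ATP5 names also cover ATP5IF1, which encodes an inhibitor of ATP synthase and no structural subunit. SDHB, UQCRFS1 and NDUFA4 were not analysed here.

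The arrays came from 2 samples of QK-knockdown U87 cells transduced with miR-20a and from 2 of QK-knockdown U87 cells transduced with miR-NT, a scrambled microRNA without a target. All 4 samples therefore carried the knockdown of QK (QKI), an RNA-binding protein, and no unmanipulated cells were analysed here. Separate cultures are not stated for the samples of a group, so p-values rest on how far these samples spread, and that spread may be technical. miR-20a belongs to the miR-17 family, and its mature sequence (RefSeq, GRCh38.p14, chr13:91351072-91351094, plus strand) is shown as the agent that distinguishes the groups, with the seed, bases 2 to 8, in capitals.
hsa-miR-20a-5p: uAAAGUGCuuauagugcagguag

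Complexes I and II pass electrons from NADH and succinate to ubiquinone, complex III passes them to cytochrome c, and complex IV passes them to oxygen. Complexes I, III and IV pump protons across the inner mitochondrial membrane, and complex V, the ATP synthase, uses the returning protons to make ATP. Most subunits are encoded in the nucleus and are assembled with the few encoded in mitochondrial DNA. Glioma lines such as U87 rely on glycolysis and keep a working respiratory chain as well.

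Respiratory chain transcripts as a group lay slightly higher in miR-20a cells, and 0 of the 135 probe sets passed the test. The miR-20a mean was above the miR-NT mean for 103 of them (44.6% of all probe sets) and below it for 31, and 1 had equal means. The median log2 difference (miR-20a minus miR-NT) was 0.22 over the members and -0.02 over all probe sets. The highest member was ATP5ME, with a difference of 0.68 and the smallest adjusted p among the members (limma, 0.0948 after Benjamini-Hochberg adjustment over all probe sets, threshold 0.05). Over all probe sets 0.136% passed, 0.119% higher and 0.0167% lower. By single genes, each taken at its probe set of highest mean level, 67 of 74 lay higher (46.9% of all genes) and 7 lower, and again 0 passed (smallest limma adjusted p 0.0818), where 0.426% of all genes did, 0.366% higher and 0.0601% lower.

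Differences are called nominal where the p of limma before adjustment was under 0.05. Nominally higher in miR-20a cells were 64 member probe sets and nominally lower 2, against 9.46% higher and 8.4% lower of all probe sets. The arrays of the groups did not overlap for 90 members that were higher and 12 that were lower, against 21.7% and 27.2% of all probe sets. By genes, 48 were nominally higher and 0 nominally lower, against 12.6% and 9.24% of all genes, and the groups did not overlap for 59 higher and 1 lower, against 25.5% and 27% of all genes. The 64 became 29 after quantile normalization, with 2 lower, where 8.04% and 8.03% of all probe sets were so called. Without miR-NT replicate 1 there were 22 higher and without miR-20a replicate 2 there were 37, against 4.43% and 10.9% of all probe sets. Without miR-20a replicate 1 there were 58 and without miR-NT replicate 2 there were 51, against 7.9% and 6.83%. Nominally lower members numbered 4, 1, 2 and 1 without miR-20a replicate 1, miR-20a replicate 2, miR-NT replicate 1 and miR-NT replicate 2, against 7.95%, 7.77%, 3.27% and 5.33% of all probe sets. After cyclic loess 31 were nominally higher against 8.6%, after median centring 1 was nominally lower against 5.75%, and with the replicate number as a block 0 were against 6.17%. Past the adjusted threshold stood 2 members with the lower 40% of probe sets left out, against 1.07% higher of all, and 15 in a trend and robust fit, against 1.87%. By genes the 48 became 18 after quantile normalization, against 9.55% of all genes, and 20 after cyclic loess, against 10.2%. Over plain _at probe sets 23 of 60 genes were nominally higher, against 9.93%. There were 18 without miR-NT replicate 1 and 28 without miR-20a replicate 2, against 6.7% and 13.5% of all genes. There were 45 without miR-20a replicate 1 and 37 without miR-NT replicate 2, against 10.6% and 9.38%. Nominally lower genes numbered 1, 0, 0 and 1 without miR-20a replicate 1, miR-20a replicate 2, miR-NT replicate 1 and miR-NT replicate 2, against 7.98%, 9.22%, 3.77% and 6.15% of all genes. Past the adjusted threshold stood 6 genes with the lower 40% of probe sets left out, against 3.79% higher of all genes, and 25 in the trend and robust fit, against 5.38%. Each array read bulk RNA, so a difference in the share of cells that express a gene and one in the RNA per cell cannot be told apart.

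**Figure D1:**
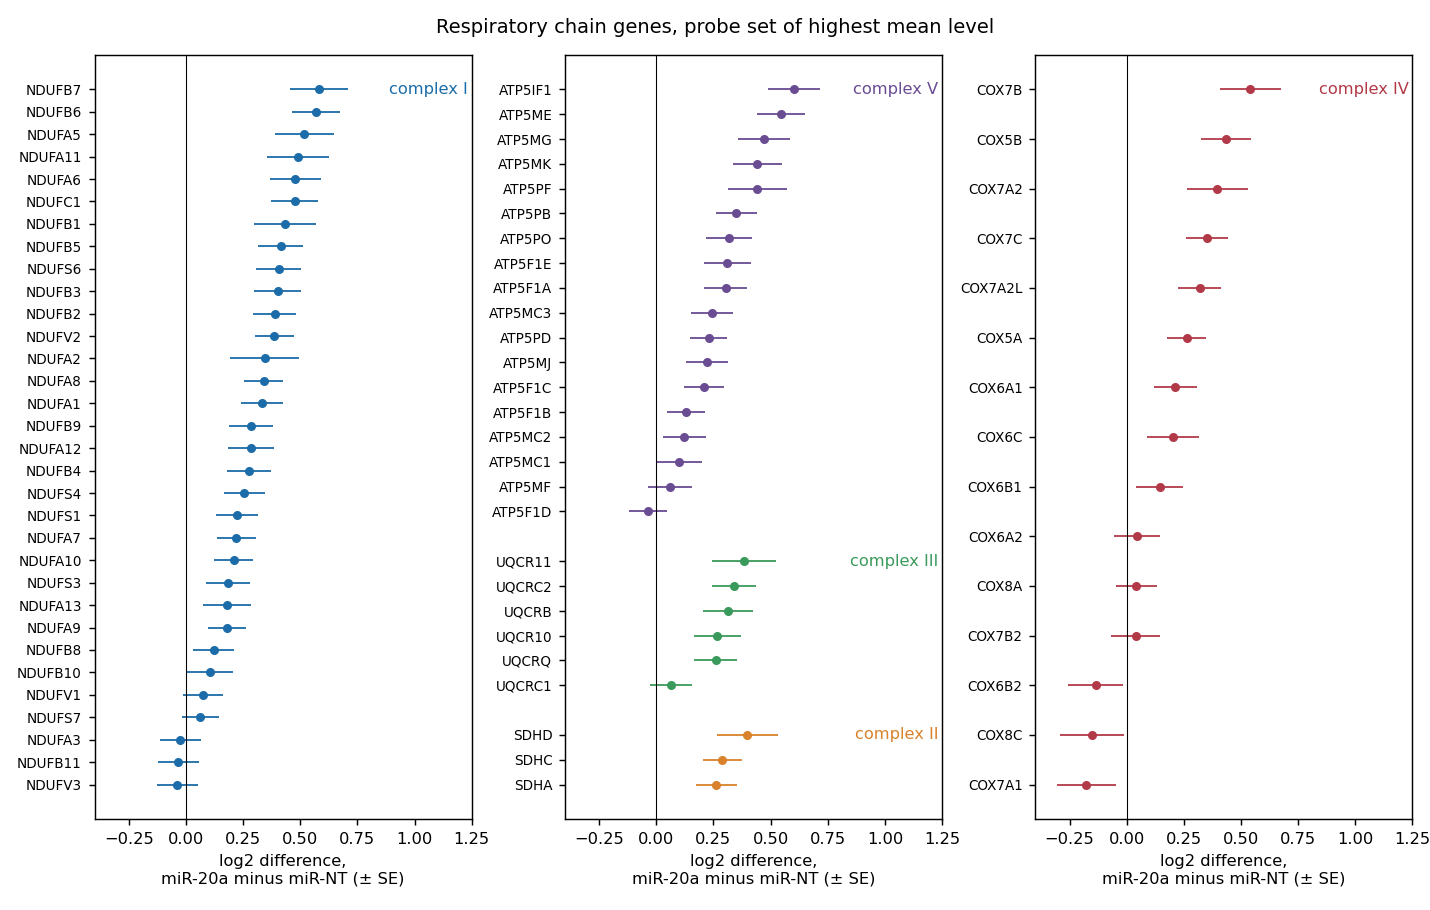
Log2 difference, miR-20a minus miR-NT, of each of the 74 genes at its probe set of highest mean level, with the SE of the limma fit over all genes as bars, grouped by complex. In the 5 complexes most points lie right of 0, from -0.18 for COX7A1 to 0.60 for ATP5IF1.

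The 4 arrays differed in their typical member level. The median level over member probe sets was 10.37 and 10.36 log2 units on miR-20a replicates 1 and 2, against 10.01 and 10.19 on miR-NT replicates 1 and 2. Measured from each probe set's own mean over the 4 arrays, the median deviation was 0.08 and 0.15 on the miR-20a arrays and -0.15 and -0.06 on the miR-NT arrays. Both miR-20a arrays lay above both miR-NT arrays, and miR-NT replicate 1 was the lowest. A sign of RNA quality differed between the groups: ACTB control probe sets at the 3′ end exceeded those at the 5′ end by 0.52 and 0.46 on the miR-20a arrays, against 0.20 and 0.35 on the miR-NT arrays. For GAPDH this excess was 0.274 and 0.277 on the miR-20a arrays, against 0.225 and 0.219 on the miR-NT arrays, so it was lowest on miR-NT replicate 1 for ACTB and on miR-NT replicate 2 for GAPDH. The spread of levels over all probe sets was also wider on the miR-20a arrays (SD 1.90 and 1.89) than on the miR-NT arrays (1.84 and 1.85). The part of either in the results for the respiratory chain was not tested.

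Among markers of the line, VIM, CD44, ANXA2 and S100A6 had mean levels of 12.5 log2 units or more over both groups. NES had one of 8.1, below the highest endothelial marker at 8.70. CHI3L1, a secreted glycoprotein of glioma cells, was at 12.44 and 12.32 in miR-20a cells, against 13.49 and 13.51 in miR-NT cells, and fell by 1.12 (limma adjusted p = 0.0106 in the fit over genes). The 5 epithelial markers had mean levels between 4.64 and 7.21, the 3 blood markers that were measured between 6.39 and 7.86 and the 3 endothelial markers between 4.78 and 8.70. These lists had 2, 2 and 1 members with a higher mean in miR-20a cells, and their summed levels were 8.26 to 8.32, 8.51 to 8.77 and 9.10 to 9.12 log2 units on the miR-20a arrays against 8.30 to 8.40, 8.71 to 8.81 and 9.13 to 9.21 on the miR-NT arrays. The values carry no detection calls, so none of these markers can be called present or absent. QKI was at 9.53 and 9.38 in miR-20a cells, against 9.18 and 9.38 in miR-NT cells, a difference of 0.18 (limma adjusted p = 0.385), and since all samples carry the knockdown this checks no label.

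Complex I, which takes electrons from NADH, had 40 probe sets higher and 16 lower in miR-20a cells, and its median difference was 0.20. Nominally higher were 24 and nominally lower 2 (limma), against 9.46% and 8.4% of all probe sets. The 24 became 14 after quantile normalization, against 8.04%, and the median was 0.19 without miR-NT replicate 1. The catalytic core contributed 5 genes, each higher on both miR-20a arrays (25.5% of all genes), with differences between 0.06 and 0.39. NDUFV2, a core subunit that carries an iron-sulfur cluster, was at 11.09 and 11.07 log2 units in miR-20a cells, against 10.65 and 10.74 in miR-NT cells. These groups did not overlap, and the difference was 0.39 ± 0.09 (SE, limma adjusted p = 0.0889). NDUFS1, the largest iron-sulfur subunit, was at 9.28 and 9.17 in miR-20a cells, against 9.05 and 8.95 in miR-NT cells, a difference of 0.22 ± 0.09 (limma adjusted p = 0.220). NDUFV1, which binds NADH and flavin, was at 10.83 and 10.89 in miR-20a cells, against 10.82 and 10.75 in miR-NT cells. Its difference of 0.07 ± 0.09 was within the error of the fit, became -0.10 after quantile normalization, and its other probe set differed by -0.35.

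The 27 accessory subunits of complex I, which surround the core and have no electron-carrying centre of their own, had a median difference of 0.33, and 24 of them lay higher. NDUFB6, a subunit of the membrane arm, was at 10.61 and 10.77 log2 units in miR-20a cells, against 10.02 and 10.22 in miR-NT cells. This difference of 0.57 ± 0.11 (SE) had the smallest limma adjusted p of the gene-level fit among the members, 0.0818. NDUFB7, another membrane-arm subunit, was at 8.52 and 8.74 in miR-20a cells, against 7.91 and 8.19 in miR-NT cells, a difference of 0.58 ± 0.13 (limma adjusted p = 0.0878). NDUFC1, also of the membrane arm, was at 10.74 and 10.93 in miR-20a cells, against 10.30 and 10.42 in miR-NT cells, a difference of 0.48 ± 0.10 (limma adjusted p = 0.0878). In these 3 genes, picked by p, both miR-20a arrays lay above both miR-NT arrays, as in 25.5% of all genes. Each of the 3 had a second probe set, of low level, with a difference below 0. The 3 complex I genes with a lower mean in miR-20a cells were the accessory subunits NDUFA3, NDUFB11 and NDUFV3, with differences between -0.04 and -0.02 and arrays that overlapped.

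Complex II, which oxidizes succinate and is also an enzyme of the citric acid cycle, had 6 probe sets higher and 2 lower, with a median difference of 0.28. Nominally higher were 6 of 8 and nominally lower 0 (limma), against 9.46% and 8.4% of all probe sets. After quantile normalization 1 of 8 was nominally higher, against 8.04% of all probe sets. Without 1 array the median lay between 0.25 and 0.29. SDHA, the flavoprotein that binds succinate, was at 10.76 and 10.71 log2 units in miR-20a cells, against 10.54 and 10.41 in miR-NT cells, a difference of 0.26 ± 0.09 (SE, limma adjusted p = 0.169). SDHC, 1 of the 2 membrane anchors, was at 9.96 and 10.01 in miR-20a cells, against 9.71 and 9.68 in miR-NT cells, a difference of 0.29 ± 0.08 (limma adjusted p = 0.130). Its other 4 probe sets ranged from -0.0019 to 0.39. SDHD, the other membrane anchor, was at 9.41 and 9.34 in miR-20a cells, against 8.79 and 9.17 in miR-NT cells. Here the miR-NT arrays stood far apart, and the difference of 0.40 ± 0.13 (limma adjusted p = 0.161) was 0.21 without miR-NT replicate 1. The other SDHD probe set, of low level, differed by -0.14.

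Complex III, which oxidizes ubiquinol, had 11 of 13 probe sets at or above equality and a median difference of 0.26. Nominally higher were 8 and nominally lower 0 (limma), against 9.46% and 8.4% of all probe sets. After quantile normalization only 2 of 13 were nominally higher, against 8.04% of all probe sets. Without 1 array the median lay between 0.17 and 0.30. UQCRC2, a core protein of the matrix side, was at 10.59 and 10.60 log2 units in miR-20a cells, against 10.16 and 10.35 in miR-NT cells, a difference of 0.34 ± 0.10 (SE, limma adjusted p = 0.127). Its 3 probe sets ranged from 0.24 to 0.34. UQCRB, which contributes to ubiquinone binding, was at 11.65 and 11.71 in miR-20a cells, against 11.24 and 11.50 in miR-NT cells, a difference of 0.31 ± 0.11 (limma adjusted p = 0.170). Its 4 probe sets ranged from -0.14 to 0.32. UQCRQ, a small accessory subunit, was at 12.48 and 12.62 in miR-20a cells, against 12.25 and 12.33 in miR-NT cells, a difference of 0.26 ± 0.09 (limma adjusted p = 0.180). The groups of these 3 genes, picked by p, did not overlap, and 25.5% of all genes were higher without overlap. UQCRC1, the partner core protein of UQCRC2, was at 11.34 and 11.39 in miR-20a cells, against 11.38 and 11.23 in miR-NT cells. Its groups overlapped, and the difference of 0.06 ± 0.09 became -0.08 after quantile normalization.

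**Figure D2:**
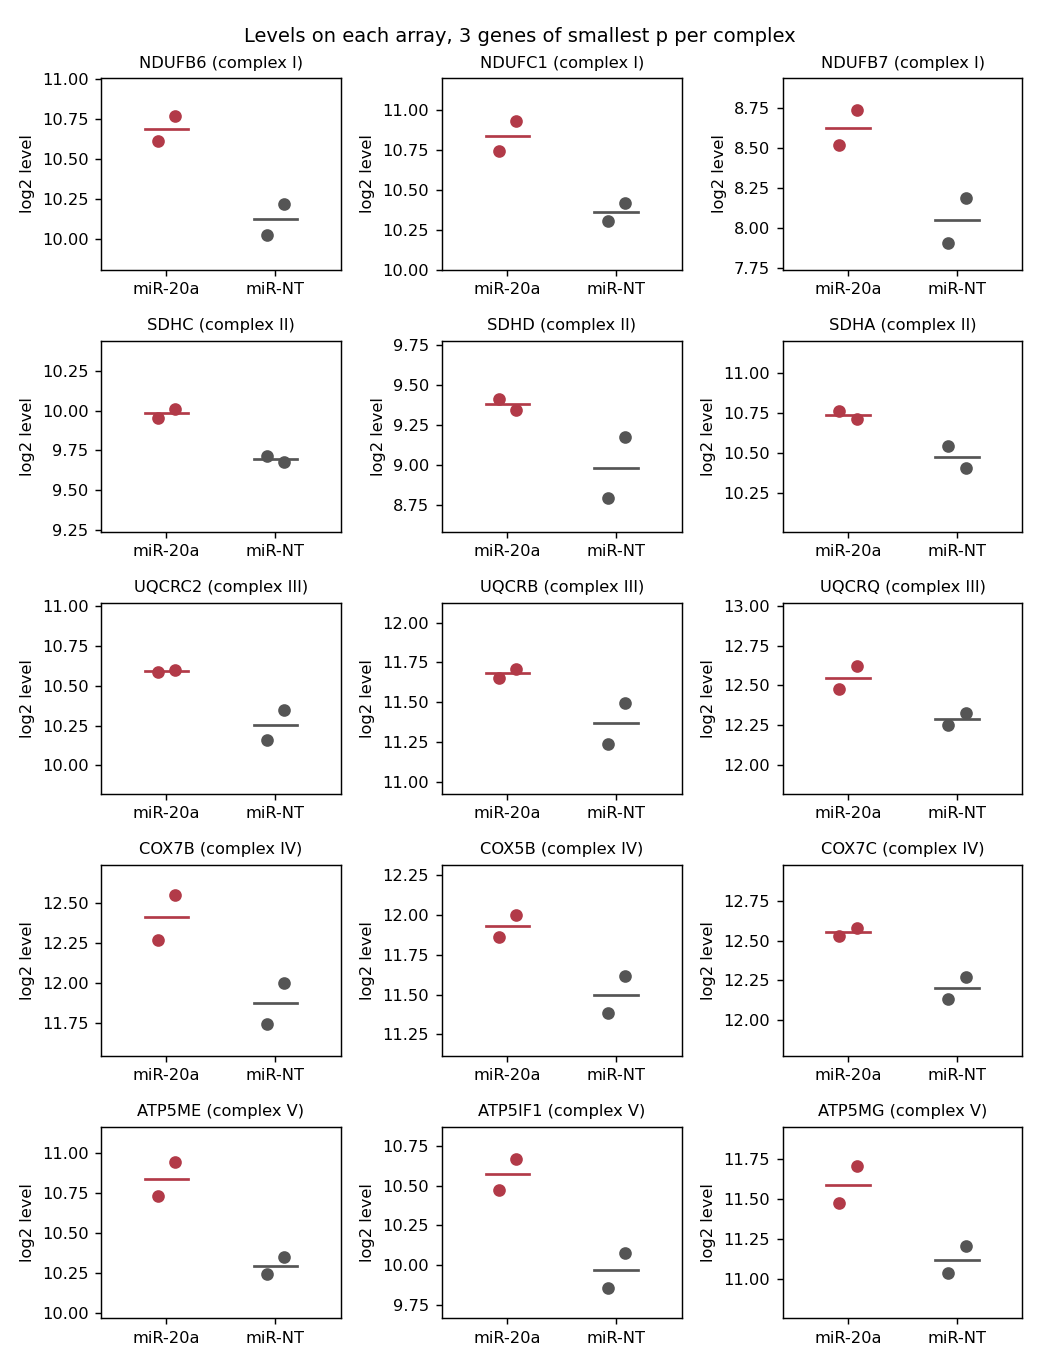
Log2 level on each array (points) and group mean (bars) of the 3 genes of smallest p in each complex, with miR-20a arrays left and miR-NT arrays right and the same span of 1.2 log2 units on each vertical axis. In the 15 panels both miR-20a points lie above both miR-NT points, as for 25.5% of all genes. The genes were picked by p on these same arrays, which favours such separation. For SDHD the miR-NT points are 8.79 and 9.17.

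Complex IV, the cytochrome c oxidase, had 17 probe sets higher and 5 lower, with a median difference of 0.21. Nominally higher were 8 and nominally lower 0 (limma), against 9.46% and 8.4% of all probe sets. The 8 became 4 after quantile normalization, against 8.04% of all probe sets. Without 1 array the median lay between 0.15 and 0.25. COX7B, a small subunit needed for assembly, was at 12.27 and 12.55 log2 units in miR-20a cells, against 11.74 and 12.00 in miR-NT cells, a difference of 0.54 ± 0.13 (SE, limma adjusted p = 0.102). COX5B, a subunit of the matrix side that binds zinc, was at 11.86 and 12.00 in miR-20a cells, against 11.38 and 11.62 in miR-NT cells, a difference of 0.43 ± 0.11 (limma adjusted p = 0.108). Its 4 probe sets ranged from -0.02 to 0.43. COX7C was at 12.53 and 12.58 in miR-20a cells, against 12.13 and 12.27 in miR-NT cells, a difference of 0.35 ± 0.09 (limma adjusted p = 0.111). Its 3 probe sets ranged from 0.22 to 0.35. The groups of these 3 genes, picked by p, did not overlap, and 25.5% of all genes were higher without overlap. COX5A, another matrix-side subunit, was at 10.90 and 10.94 in miR-20a cells, against 10.64 and 10.68 in miR-NT cells, and had a difference of 0.26 ± 0.08 (limma adjusted p = 0.148). Its other probe set differed by -0.19.

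Complex IV has isoforms used in muscle, testis and other tissues beside the widely expressed ones. The widely expressed ones are given here beside their tissue isoforms. COX6A1, the widely expressed isoform, was at 13.01 and 13.17 log2 units in miR-20a cells, against 12.86 and 12.90 in miR-NT cells, a difference of 0.21 ± 0.09 (SE, limma adjusted p = 0.247). COX6A2, its heart and skeletal muscle isoform, was at 6.75 and 6.60 in miR-20a cells, against 6.55 and 6.71 in miR-NT cells, with overlapping groups and a difference of 0.05 ± 0.10. COX7A2 was at 10.84 and 11.07 in miR-20a cells, against 10.40 and 10.71 in miR-NT cells, a difference of 0.40 ± 0.13 (limma adjusted p = 0.161). COX7A1, the muscle isoform, was at 5.97 and 5.95 in miR-20a cells, against 6.32 and 5.95 in miR-NT cells, so its difference of -0.18 ± 0.13 came from miR-NT replicate 1 and was 0.0059 without it. COX6B1 had a difference of 0.14 ± 0.10, which became -0.01 after quantile normalization, and its testis isoform COX6B2 one of -0.14 ± 0.12, each with overlapping groups. With COX7B2 and COX8C, 5 such isoforms had differences between -0.18 and 0.05 and mean levels between 4.41 and 7.30, where the difference between isoforms was not tested. COX8A, the widely expressed partner of COX8C, was at 12.36 and 12.48 in miR-20a cells, against 12.33 and 12.42 in miR-NT cells, with overlapping groups and a difference of 0.04 ± 0.09.

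Complex V had 30 probe sets higher and 6 lower, with a median difference of 0.23. Nominally higher were 18 and nominally lower 0 (limma), against 9.46% and 8.4% of all probe sets. The 18 became 8 after quantile normalization, against 8.04% of all probe sets. Without 1 array the median lay between 0.18 and 0.30. ATP5ME encodes subunit e, a small membrane subunit at the interface of ATP synthase dimers. By its higher probe set it was at 10.74 and 10.94 log2 units in miR-20a cells, against 10.24 and 10.35 in miR-NT cells, a difference of 0.55 ± 0.10 (SE, limma adjusted p = 0.0819). ATP5MG encodes subunit g of the same interface, and its 4 probe sets had differences between 0.47 and 0.55. By the highest it was at 11.47 and 11.71 in miR-20a cells, against 11.03 and 11.20 in miR-NT cells (limma adjusted p = 0.0988). ATP5IF1, which blocks ATP hydrolysis by the enzyme, was at 10.47 and 10.67 in miR-20a cells, against 9.86 and 10.08 in miR-NT cells, a difference of 0.60 ± 0.12 (limma adjusted p = 0.0819). Its other probe sets differed by 0.39 and 0.14. The groups of these 3 genes, picked by p, did not overlap, and 25.5% of all genes were higher without overlap.

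Of 5 genes of the catalytic head of ATP synthase, 4 lay higher (46.9% of all genes) and 1 lower in miR-20a cells. Nominally higher were 3, against 12.6% of all genes. ATP5F1A, the alpha subunit, was at 12.49 and 12.32 log2 units in miR-20a cells, against 12.08 and 12.11 in miR-NT cells, a difference of 0.30 ± 0.09 (SE, limma adjusted p = 0.144). Its other probe set, of low level, differed by -0.06. ATP5F1B, the catalytic beta subunit, was at 13.13 and 13.11 in miR-20a cells, against 12.98 and 13.01 in miR-NT cells, a difference of 0.13 ± 0.08 (limma adjusted p = 0.414) that became -0.03 after cyclic loess normalization. ATP5F1E, the epsilon subunit, had a difference of 0.31 ± 0.10 (limma adjusted p = 0.152), and ATP5F1C, the gamma subunit that turns within the head, one of 0.21 ± 0.09 (limma adjusted p = 0.227). The groups of both genes did not overlap. ATP5F1D, the delta subunit, was at 10.45 and 10.47 in miR-20a cells, against 10.52 and 10.47 in miR-NT cells, and was the 1 gene of complex V with a lower mean, with its other probe set at -0.21. The medians were 0.21 over 5 genes of the head, 0.33 over 4 genes of the stalk and 0.44 over 5 small membrane subunits, a grouping made after the values were seen and not tested.

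Subunit c, which forms the rotating ring, is made from 3 genes that give the same mature protein. ATP5MC1 was at 10.08 and 10.26 log2 units in miR-20a cells, against 10.01 and 10.13 in miR-NT cells, with overlapping groups and a difference of 0.10 ± 0.10 (SE). ATP5MC2 was at 11.19 and 11.31 in miR-20a cells, against 11.06 and 11.19 in miR-NT cells, a difference of 0.12 ± 0.09. Both differences turned to -0.03 and -0.04 after quantile normalization. ATP5MC3 was at 12.52 and 12.62 in miR-20a cells, against 12.28 and 12.38 in miR-NT cells, groups that did not overlap, with a difference of 0.24 ± 0.09 (limma adjusted p = 0.195). The other ATP5MC3 probe sets differed by 0.36 and -0.15.

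Between complexes I to V the medians lay between 0.20 and 0.28, with complex II highest and complex I lowest. The median level of a complex also varied between arrays of a group, with a pooled SD of 0.05 log2 units for complex I, 0.14 for complex II, 0.09 for complex III, 0.10 for complex IV and 0.11 for complex V. At 1 probe set per gene the medians lay between 0.20 for complex IV and 0.29 for complex III, so the order of the complexes was not kept. After quantile normalization they lay between 0.08 for complex IV and 0.18 for complex II, and after cyclic loess between 0.09 and 0.19. A test between complexes was not made.

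**Figure D3:**
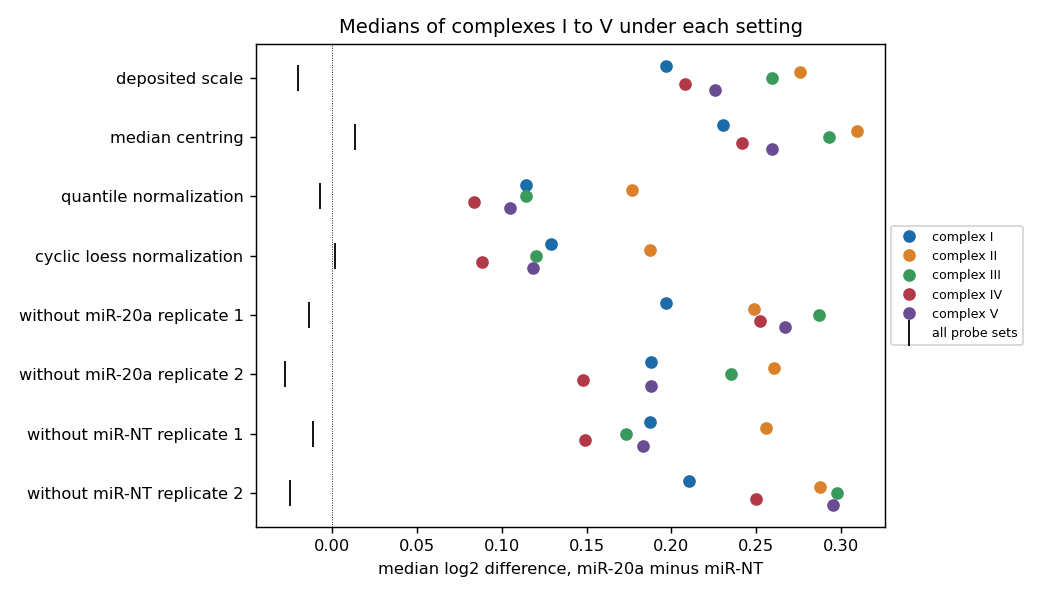
Median log2 difference, miR-20a minus miR-NT, over the probe sets of each complex (points) and over all probe sets (black bars), on the deposited scale, under 3 other scalings and without each array in turn. Each complex stays above 0 and above all probe sets in the 8 settings, and the 5 points are lowest after quantile normalization (0.08 to 0.18) and cyclic loess (0.09 to 0.19).

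The difference of a member went with its level. Over the 135 member probe sets, which share the 4 arrays, Spearman's rho between mean level and difference was 0.58, and over all probe sets it was 0.22. Below a mean level of 8 log2 units, 36 member probe sets had a median difference of -0.05, against -0.04 for all probe sets in that range, and 2 were nominally higher, against 4.07% of all probe sets in that range (4 against 5.78% after quantile normalization). Between 8 and 10, 23 members had a median of 0.22 and 11 were higher, against a median of 0.04 and 19% of all (4 against 13.4% after quantile normalization). Between 10 and 13, 75 members had a median of 0.31 and 51 (68%) were higher, against 0.15 and 36.7% of all probe sets there. The median of the members was thus above that of all probe sets between 8 and 13 and slightly below it under 8, and these differences were not tested. After quantile normalization 21 of the 75 (28%) were higher, against 14.7% of all in that range, with medians of 0.16 and 0.00. The member with a mean level above 13 was ATP5F1B, which was not nominally higher, against 11.9% of all probe sets there (4.85% after quantile normalization).

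**Figure D4:**
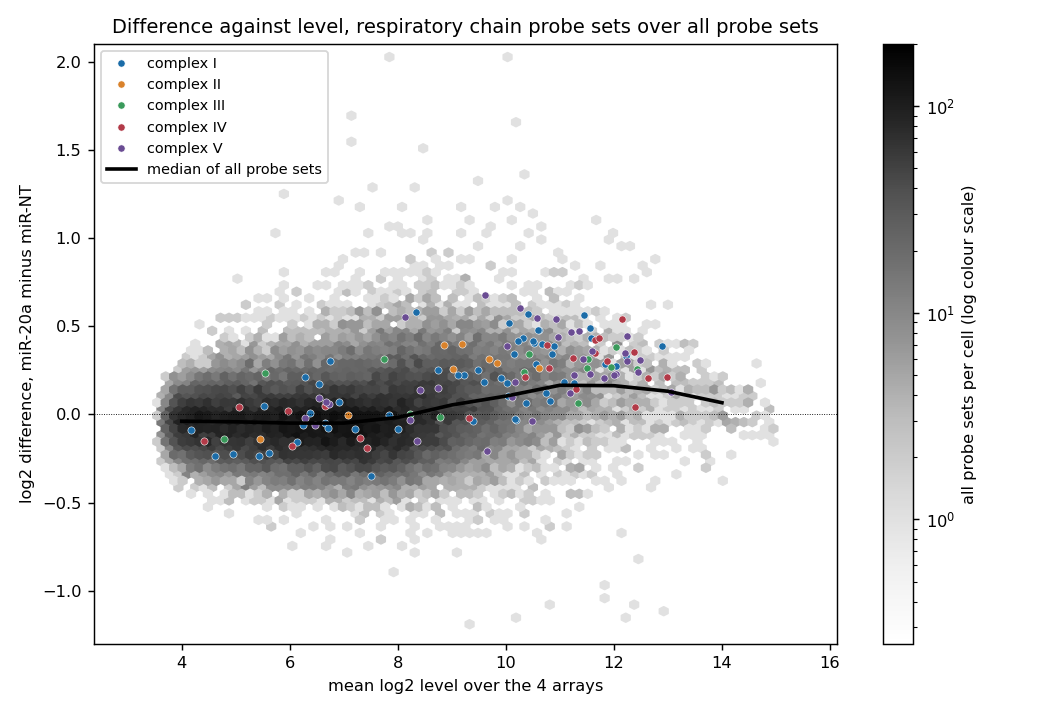
Log2 difference, miR-20a minus miR-NT, against mean log2 level over the 4 arrays, for all 41920 probe sets (grey cells, log colour scale) and the 135 members (points, coloured by complex); the black line is the median of all probe sets in steps of 1 log2 unit. The line runs from below 0 at low levels to above 0 between 9 and 14, and members above a level of 10 lie mostly above it.

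**Figure D5:**
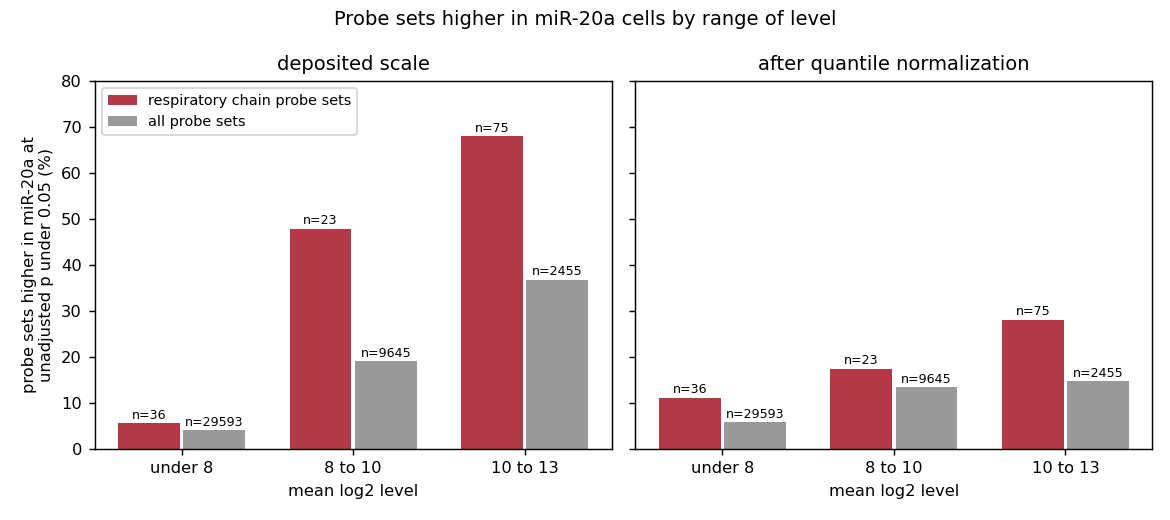
Percent of probe sets nominally higher in miR-20a cells, for respiratory chain probe sets (red) and all probe sets (grey) in 3 ranges of mean log2 level, on the deposited scale (left) and after quantile normalization (right). At levels of 10 to 13 the bars are 68% and 36.7% on the deposited scale and 28% and 14.7% after quantile normalization.

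Probe sets of 1 gene often disagreed. Of 40 genes with more than 1 probe set, 22 had differences of both signs, 16 were higher by each and ATP5F1D was lower by each, while UQCR11 had 1 probe set at equality. The 61 probe sets that were not the highest of their gene had a median level of 8.12 and a median difference of 0.09, against 0.27 for the highest probe sets of the 74 genes. The 75 probe sets with an ID ending in plain _at had a median of 0.12, the 40 ending in _s_at 0.29 and the 19 ending in _x_at 0.30. The _s_at and _x_at endings mark probes shared with other transcripts, and many of these genes have pseudogene copies, so part of such a signal may come from related sequences. That part was not tested.

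RefSeq promoters of GRCh38.p14, from 250 bases before to 50 after the gene start, were available for 64 of the 74 genes. Respiratory genes are known targets of the nuclear factors NRF1, GABP and YY1. The NRF1 motif, with its middle base left free and read on both strands, stood in 25% of the 64 genes and in 5.78% of all 35116 promoters. The ETS word CCGGAAG of the GABP type, on both strands, stood in 28.1% of the genes and 10.3% of all promoters, and the YY1-type word AAGATGGCG in 12.5% and 1.75%. Members were counted by gene, with the word in any listed promoter, and the background by single promoters. These shares are thus in unlike units, and their difference was not tested. Genes with the NRF1 word had a median difference of 0.27, against 0.31 for those without it. For the ETS word these were 0.32 and 0.27, and for the YY1-type word 0.20 and 0.31. The first 2 promoters below belong to a pair of genes with a positive difference (ATP5ME and SDHD) and UQCRC1 to a core gene near equality. The NRF1 word occurs in both kinds, the ETS word here only in the first 2 and the YY1-type word only in UQCRC1. This split belongs to the 3 promoters chosen and does not hold over the members. The ETS word also stood in COX8A (difference 0.04) and the YY1-type word also in NDUFA6 (difference 0.48). Capitals mark the words, which do not overlap here. ATP5ME lies at chr4:674227-674526 on the minus strand with 2 NRF1 words and 1 ETS word, SDHD at chr11:112086623-112086922 on the plus strand with 1 of each, and UQCRC1 at chr3:48609597-48609896 on the minus strand with 1 NRF1 and 1 YY1-type word.
ATP5ME: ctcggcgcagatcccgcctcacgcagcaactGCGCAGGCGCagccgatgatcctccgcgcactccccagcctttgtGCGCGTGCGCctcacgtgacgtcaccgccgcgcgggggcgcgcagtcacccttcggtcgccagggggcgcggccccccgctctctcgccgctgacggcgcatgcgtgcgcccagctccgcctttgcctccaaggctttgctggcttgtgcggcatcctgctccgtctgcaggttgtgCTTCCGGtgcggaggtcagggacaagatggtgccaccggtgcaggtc
SDHD: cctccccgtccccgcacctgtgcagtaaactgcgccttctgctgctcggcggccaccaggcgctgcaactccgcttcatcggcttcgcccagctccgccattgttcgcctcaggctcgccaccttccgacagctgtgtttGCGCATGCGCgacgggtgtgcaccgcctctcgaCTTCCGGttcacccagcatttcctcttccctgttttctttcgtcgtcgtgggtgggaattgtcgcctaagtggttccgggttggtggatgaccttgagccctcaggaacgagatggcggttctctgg
UQCRC1: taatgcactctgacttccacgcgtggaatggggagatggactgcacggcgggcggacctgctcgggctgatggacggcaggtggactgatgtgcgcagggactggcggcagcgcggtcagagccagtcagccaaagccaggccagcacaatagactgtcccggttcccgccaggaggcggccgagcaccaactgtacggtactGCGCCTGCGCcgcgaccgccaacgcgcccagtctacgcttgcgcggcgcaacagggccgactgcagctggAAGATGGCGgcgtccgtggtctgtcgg

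Genes that act with the chain were read from the same gene-level fit, and 0 members of 9 lists passed over all genes (limma). Assembly factors of complexes I to V, which insert cofactors and join subunits, had 41 of 50 genes higher in miR-20a cells (46.9% of all genes). Their median difference was 0.15. Nominally higher were 20 and nominally lower 1, against 12.6% and 9.24% of all genes. TMEM126B, which helps build the membrane arm of complex I, was at 9.80 and 9.91 log2 units in miR-20a cells, against 9.31 and 9.41 in miR-NT cells, a difference of 0.49 ± 0.09 (SE, limma adjusted p = 0.0818). TMEM70, which helps build ATP synthase, was at 10.31 and 10.37 in miR-20a cells, against 9.75 and 9.93 in miR-NT cells, a difference of 0.50 ± 0.10 (limma adjusted p = 0.0819). Neither gene's groups overlapped, where both were picked by p and 25.5% of all genes were higher without overlap.

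Mitochondrial ribosomal proteins, which translate the subunits encoded in mitochondrial DNA, had 67 of 75 genes higher (46.9% of all genes) and a median of 0.17. Nominally higher were 26 and nominally lower 0, against 12.6% and 9.24% of all genes. MRPL36 and MRPL20, of the large subunit, had differences of 0.44 and 0.57. Of 11 citric acid cycle enzymes 5 were nominally higher and 0 nominally lower, against 12.6% and 9.24% of all genes. Their median was 0.17, with DLD, the shared E3 of the dehydrogenase complexes, at 0.47 and the succinyl-CoA ligase subunit SUCLG1 at 0.39. Of 22 import genes 6 were nominally higher and 1 nominally lower, against 12.6% and 9.24% of all genes, with a median of 0.10. TIMM17A, a channel subunit, had a difference of 0.54 ± 0.08 (SE, limma adjusted p = 0.0609) and TOMM20, the import receptor, one of 0.44.

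Of 14 genes of ubiquinone synthesis and the electron transfer flavoprotein, 5 were nominally higher and 0 nominally lower, against 12.6% and 9.24% of all genes. Their median was 0.04. COQ5, a methyltransferase of ubiquinone synthesis, was at 8.84 and 8.76 log2 units in miR-20a cells, against 8.19 and 8.26 in miR-NT cells, a difference of 0.57 ± 0.09 (SE, limma adjusted p = 0.0596). ETFA, the alpha chain of the flavoprotein, was at 9.92 and 9.97 in miR-20a cells, against 9.21 and 9.42 in miR-NT cells, a difference of 0.63 ± 0.10 (limma adjusted p = 0.0642). Subunits and carriers outside the name pattern gave 2 of 5 nominally higher (12.6% of all genes). Among them NDUFAB1, the mitochondrial acyl carrier protein in complex I, was at 0.38 and CYCS, cytochrome c, at 0.29. Carriers and VDACs gave 2 of 6 nominally higher (12.6% of all genes), with VDAC3, an outer membrane channel, at 0.37 and SLC25A5, an ADP/ATP carrier, at 0.24.

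Of 12 nuclear regulators 6 lay higher and 6 lower, with a median of -0.02 and 1 nominal difference in each direction. MYC had a difference of -0.34 ± 0.08 (SE, limma adjusted p = 0.101) and CREB1, a cAMP-responsive factor, one of 0.31 ± 0.09 (limma adjusted p = 0.120). Of 18 genes of mitochondrial DNA transcription and replication 11 lay higher and 7 lower, 4 were nominally higher and 2 nominally lower, with a median of 0.10. RRM2B, a ribonucleotide reductase subunit, had a difference of 0.51. TFB1M, the rRNA methyltransferase of the mitochondrial ribosome, was at 8.96 and 9.05 in miR-20a cells, against 9.33 and 9.33 in miR-NT cells, a difference of -0.32 ± 0.09 (limma adjusted p = 0.114). Nominal counts in these lists are to be read against the 12.6% higher and 9.24% lower of all genes. Counts of genes lying higher are to be read against 46.9% of all genes. Nominal calls also went with level, with 36.7% of all probe sets nominally higher at levels of 10 to 13 and 19% at 8 to 10. The lists had median levels between 8.06 and 11.24, against 7.62 over all genes. Carriers and VDACs (11.24) and subunits and carriers outside the name pattern (11.06) were highest. Counts within ranges of level were not made for the lists.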

How the data were processed

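The authors deposited log2 levels, 1 for each probe set on each array, made in R with affy per the submitters' processing notes. Their methods of background correction, scaling and summarizing probes were not given in the sources used here. That the base is 2 was read from the range of values. The values have no detection calls, and precision is limited by the number of arrays. The table held 41930 probe sets, 10 of them controls that were left out. Gene names came from the platform annotation held by GEO, updated by RefSeq (0 symbols changed): 37465 named 1 gene, 1727 several and 2728 none.

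miR-20a was compared with miR-NT by limma 3.58.1 in R 4.3.3 (lmFit, eBayes, intercept and group, no low-value filter), over all 41920 probe sets and over 18304 genes at their probe set of highest mean. P-values are two-sided and Benjamini-Hochberg adjusted, and errors given with ± are SEs of the fit. An exact permutation test of 2 arrays against 2 cannot go below 0.333. The fit was also run on simulated data drawn from its own variance model. That run checks the code and cannot show how well the model holds for these arrays. Genes named were those of smallest p in each complex, core subunits, tissue isoforms and subunit c genes. COX8A, ATP5F1C, ATP5F1D, ATP5F1E, NDUFV2, NDUFA3, NDUFB11 and NDUFV3 were named after their values were seen. Role groups, level ranges and promoter motifs were chosen after values were seen, and lists were compiled from general knowledge. Members and lists were chosen with earlier results of these data known. Same-numbered samples are not stated to be paired.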

Additional observations from a re-analysis of the deposited data

Results flagged for a closer look

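The ACTB control probe sets, a control outside the comparisons, read higher at the 3′ end than at the 5′ end by 0.486 (log2, mean of 2 arrays) for miR-20a, more than the 0.272 for miR-NT.

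Several probe sets carry a respiratory chain gene beside another gene and so were no members. For 7 of them the miR-20a arrays lay above the miR-NT arrays without overlap (21.7% of all probe sets), and for 1 of NDUFS8, with a difference of -0.07, they lay below (27.2%). Another of NDUFS8, at -0.02, and another of NDUFC2, at -0.04, overlapped. In the 7 the log2 difference, miR-20a minus miR-NT, was 0.44 for the probe set of RPL10 and NDUFS5, 0.35 for that of UQCRH and UQCRHL, 0.38 for that of ATP5MF and ARMC2-AS1, 0.24 for that of NDUFC2 and NDUFC2-KCTD14, 0.24 for that of NDUFS3 and PTPMT1, 0.36 for that of SDHA and its pseudogenes and 0.14 for 1 of the 3 of NDUFS8 with 2 microRNA genes. Their limma adjusted p-values in the fit over all probe sets lay between 0.147 and 0.486. The ATP5MF probe set that names this gene alone had a difference of 0.06.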

How the results depend on the processing

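In all settings tried the medians of complexes I to V stayed above 0, except complex II at -0.0019 over its plain _at probe sets. The count of all probe sets past the threshold, 57, became 334 with the lower 40% of probe sets left out, 957 with a trend and robust fit and between 0 and 66 without 1 array. Without miR-NT replicate 1 or 2 it was 0 (limma, with 1859 and 2862 nominally higher). With the replicate number as a block it was 0 (limma, with 3169 nominally higher and 2585 nominally lower), and 0 of the members' 2 nominally lower probe sets were left. The samples share only a number, and deviations of same-numbered samples correlated at -0.12 over all probe sets and 0.29 over members. A crossed pairing, added after seeing the data, gave 0 of all probe sets past the threshold.

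Member probe sets past the threshold numbered 2 with the lower 40% left out (ATP5ME and ATP5MG, against 1.07% of all probe sets higher), 15 with the trend and robust fit (against 1.87%), 1 at a threshold of 0.10 and 0 without any 1 array (limma). Member genes past it numbered 6 with the lower 40% left out (against 3.79% of all genes higher) and 25 with the trend and robust fit (against 5.38%). Nominally higher member probe sets numbered 29 after quantile normalization, 31 after cyclic loess, a setting chosen once values were known, and 22 to 58 without 1 array, and lower ones 1 after median centring and 1 to 4 without 1 array. Of all probe sets, 8.04% were nominally higher after quantile normalization and 8.6% after cyclic loess, and 5.75% were nominally lower after median centring. The shares of all probe sets without 1 array stand beside each count in the Results. Higher member genes numbered 18 after quantile normalization (9.55% of all genes), 20 after cyclic loess (10.2%), 23 with shared-sequence probe sets left out (9.93%) and 18 to 45 without 1 array (6.7% to 13.5%), and lower ones 0 to 1.

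The median over all members was 0.11 after quantile normalization, 0.12 after cyclic loess and 0.12 over plain _at probe sets. In the same order complex I gave 0.11, 0.13 and 0.12, complex III 0.11, 0.12 and 0.15 and complex IV 0.0837, 0.088 and 0.0951. Complex V gave 0.10 after quantile normalization and 0.12 after cyclic loess. Complex I gave 0.25 with the lower 40% left out and 0.28 with 1 probe set per gene. Without 1 array the medians lay between 0.18 and 0.27 over all members, 0.19 and 0.21 in complex I, 0.25 and 0.29 in II, 0.17 and 0.30 in III, 0.15 and 0.25 in IV and 0.18 and 0.30 in V.

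Signs turned for 8 of the genes named by smallest p or as core subunits, paired tissue isoforms or subunit c genes. Other named genes, such as COX8A, NDUFA3, NDUFB11 and NDUFV3, were not followed singly through the settings. After quantile normalization ATP5MC1 was at -0.031, ATP5MC2 at -0.0433, COX6B1 at -0.0129, NDUFV1 at -0.10 and UQCRC1 at -0.0815. After cyclic loess ATP5F1B was at -0.0272, ATP5MC1 at -0.0227, ATP5MC2 at -0.0159, NDUFV1 at -0.061 and UQCRC1 at -0.0771. Without 1 array COX6A2 ranged from -0.0322 to 0.13, COX7A1 from -0.36 to 0.0059 and UQCRC1 from -0.0104 to 0.14. The cause of these shifts was not tested. NDUFA4 was not analysed here, so its count with complex IV was not run.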
